A study of Homo sapiens with 60 samples.

Results

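The genes described here, the members, are 41 human genes that supply and charge amino acids for translation, chosen by name from the 60675 gene identifiers of the deposited table. They comprise 19 cytosolic aminoacyl-tRNA synthetase genes, 14 genes for enzymes of amino acid and one-carbon synthesis, and 8 amino acid transporter genes. All 41 were found, 17 of them under an older symbol such as AARS for AARS1, and all 41 passed the filter on low counts, which left 17792 genes for testing. Expression was measured by RNA-seq in SW1783, an established human astrocytoma cell line, in 60 libraries that form 20 groups of 3.

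Every group was treated for 24 h. The controls received DMSO vehicle, at 0.1% by the treatment label and 2% by the series description, and the positive control group received 10 µM wortmannin, an inhibitor of phosphatidylinositol 3-kinases. The other groups received a water extract of 1 of 6 herbs at a high, a medium and a low dose. The doses were 500, 100 and 20 µg/mL for Liriopis seu Ophiopogonis Tuber, Schisandrae Fructus, Longan Arillus, Zizyphi Semen and Aucklandiae Radix, and 250, 50 and 10 µg/mL for Polygalae Radix. All groups share the 1 cell line, and the labels do not tie the 3 libraries of a group to separate cultures, so the p-values reflect the spread among libraries alone, which may be technical. By the first part of the library names, vehicle and wortmannin each stand alone, Liriopis shares its part with Schisandrae, Longan with Zizyphi, and Polygalae with Aucklandiae. No label calls these parts batches. A difference between such library sets and a difference from vehicle cannot be told apart, whereas the doses of a herb lie within a set, so the high and low doses of each herb are compared first.

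The libraries held 9.34 M to 35.35 M expected counts (median 25.71 M). Liriopis_high replicate 1 stood apart, with a mean correlation of log2 CPM (counts per M counts of the library) of 0.881 to the other libraries of its group, where every library outside that group reached at least 0.994. Of 8 astrocyte markers, SOX9, GJA1 and SLC1A3 were expressed in every library (medians of 75.3, 195 and 27.4 CPM), while GFAP, AQP4, S100B and ALDH1L1 had medians of at most 0.128 CPM. Several markers that define mature astrocytes were thus at or near 0, with AQP4 at 0 in 51 libraries and ALDH1L1 in 33, and GFAP at no more than 0.339 CPM in any library. Markers of oligodendrocytes (MOG, MAG and SOX10), T cells (CD3E) and microglia (AIF1) had a median of 0 CPM, while the leukocyte genes CD68 and PTPRC had medians of 180 and 8.95 CPM.

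As background, an aminoacyl-tRNA synthetase joins an amino acid to its tRNA, and the ribosome can use only charged tRNAs. When charged tRNAs run short, the kinase GCN2 (EIF2AK4) phosphorylates the initiation factor eIF2, and translation of the transcription factor ATF4 rises. ATF4 binds a DNA element known as the CARE, in partnership with C/EBP proteins such as CEBPG, and its known targets include genes for asparagine synthesis (ASNS), serine synthesis (PHGDH, PSAT1), many cytosolic synthetases and transporters such as the SLC7A5 and SLC3A2 pair. Astrocytes are known for making serine and glutamine for neurons and for taking up glutamate.

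**Figure D1:**
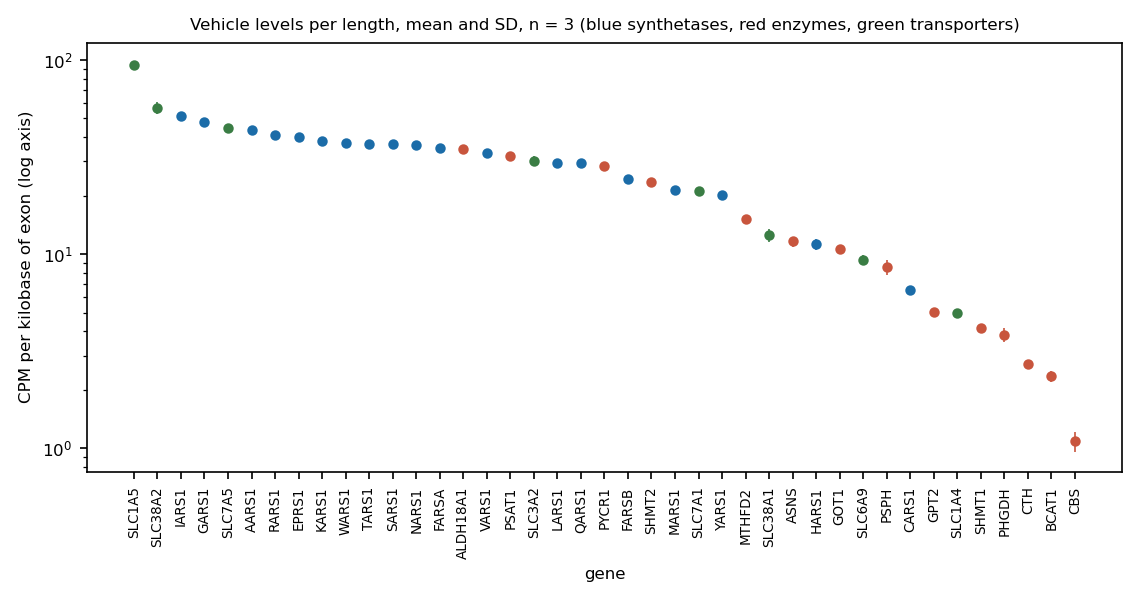
Level of each of the 41 genes in vehicle libraries, in CPM per kilobase of exon on a log axis, as mean and SD of 3 libraries, ordered by level and coloured by role. SLC1A5 is highest at 94.0 and CBS lowest at 1.09, and synthetases fill most of the upper part of the order.

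In vehicle libraries, most synthetase genes lay in the upper part of the order by level once counts were divided by exon length. That length joins all annotated exons of a gene, such as 9217 bases for PHGDH and 2188 for PSAT1. The order between genes thus also depends on the annotation. The glutamine transporter gene SLC1A5 was highest at 94.0 ± 3.45 CPM per kb (SD, n = 3), followed by SLC38A2, a transporter of small neutral amino acids, at 56.7 ± 3.80 and IARS1 at 51.2 ± 1.24 CPM per kb. Synthetase genes ran from IARS1 down to HARS1 (11.2 ± 0.703) and CARS1 (6.56 ± 0.184 CPM per kb). Neighbours in this order often lay within an SD of each other, as WARS1, TARS1, SARS1 and NARS1 did between 37.2 and 36.3 CPM per kb. The lowest levels per kb were those of PHGDH (3.84 ± 0.330), the first enzyme of serine synthesis, CTH (2.73 ± 0.040), BCAT1 (2.35 ± 0.156) and CBS (1.09 ± 0.132). CTH and CBS act in succession to make cysteine from homocysteine. The next values are CPM without division by length, so that they compare groups and not genes, and a CPM is a share of a library: fewer cells and less RNA per cell cannot be told apart in it.

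Promoter windows are shown for members that later differed in response, because the shared CARE core, TGATGNAA (on the other strand TTNCATCA), could be read in several of them. RefSeq promoters (GRCh38.p14, 250 bases before to 50 after the transcript start) were given for 34 of the 41 genes. The core was found on either strand in 12 of these 34 windows (35.3%) and in 1270 of all 35116 windows (3.62%). Over the 250 bases before the start alone, it was found in 5 of 34 (14.7%) and in 3.14% of all windows. Read as the forward strand of the core, 8 of the 12 hold TGATGCAA, 3 hold TGATGAAA (ASNS, SLC7A1 and SLC38A1) and SLC3A2 holds TGATGTAA. The windows below are printed 5′ to 3′ along the gene, with the core in capitals, for 6 genes with the core and then ALDH18A1 and EPRS1 without it. They are those with the smallest p in the comparison of herbs given further on.
AARS1 (chr16:70289641-70289738, minus strand): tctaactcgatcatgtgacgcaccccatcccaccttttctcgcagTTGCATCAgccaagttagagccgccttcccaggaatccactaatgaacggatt
ASNS (chr7:97872424-97872521, minus strand): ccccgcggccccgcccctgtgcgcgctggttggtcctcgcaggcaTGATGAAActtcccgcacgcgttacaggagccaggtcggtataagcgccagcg
TARS1 (chr5:33440922-33440989, plus strand): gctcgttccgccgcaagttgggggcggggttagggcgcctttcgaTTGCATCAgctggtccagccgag
MARS1 (chr12:57488019-57488092, plus strand): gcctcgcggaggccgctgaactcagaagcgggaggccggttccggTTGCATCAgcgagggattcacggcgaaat
CARS1 (chr11:3057399-3057470, minus strand): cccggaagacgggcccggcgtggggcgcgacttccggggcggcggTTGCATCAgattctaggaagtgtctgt
GOT1 (chr10:99430770-99430867, minus strand): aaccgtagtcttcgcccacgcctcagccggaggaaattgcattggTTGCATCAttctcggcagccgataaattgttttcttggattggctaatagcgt
ALDH18A1 (chr10:95656712-95656809, minus strand): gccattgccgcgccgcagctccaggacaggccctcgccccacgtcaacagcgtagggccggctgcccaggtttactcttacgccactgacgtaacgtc
EPRS1 (chr1:220046506-220046603, minus strand): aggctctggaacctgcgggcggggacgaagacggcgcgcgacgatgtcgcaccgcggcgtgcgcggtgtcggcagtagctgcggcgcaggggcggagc

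The first base of the core lies 187 bases before the start in AARS1, 198 before it in GOT1 and 68 before it in ASNS, and at the start itself, within 4 bases of it, in CARS1, MARS1 and TARS1. The same spelling, TTGCATCA, thus stands at the transcript start of 3 synthetase genes, and IARS1 holds it 13 bases before the start. A match describes letters in the window and is no measured binding site.

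Schisandrae Fructus raised most of these genes at its high dose. Between 500 and 20 µg/mL, 32 of 41 rose and 2 fell by edgeR's quasi-likelihood test at a Benjamini-Hochberg adjusted p under 0.05, whereas 25% of all tested genes rose and 24.8% fell. The median log2 fold change of the 41 was 0.52, and that of all tested genes was 0.00379. By role, 15 of 19 synthetases rose and 1 fell, 11 of 14 synthesis enzymes rose and 1 fell, and 6 of 8 transporters rose. The largest rises were in CTH, ASNS and MTHFD2, each by more than 1 log2 unit. Summed levels of the 8 astrocyte markers ran from 299.8 to 315.9 CPM at the low dose and 230.3 to 249.8 CPM at the high dose. Those of 7 neuron markers ran from 159.7 to 172.0 and 79.2 to 86.8 CPM. Over all libraries TUBB3, SNAP25, SYT1 and MAP2 had medians of 112, 25.4, 22.3 and 6.37 CPM, and RBFOX3, STMN2 and GAP43 at most 0.194 CPM. The 5 oligodendrocyte markers summed to between 6.93 and 7.85 CPM at the low dose and 11.4 to 14.2 CPM at the high dose, of which MBP had the highest median over all libraries (7.06 CPM) and MOG, MAG and SOX10 a median of 0. The 6 leukocyte markers summed to between 171.8 and 203 CPM at the low dose and 206 to 239 CPM at the high dose, and the 5 endothelial markers to between 35.2 and 36.86 and 36.91 to 39.4 CPM. Of the endothelial markers, KDR had a median of 34.5 CPM over all libraries, and PECAM1, VWF, CLDN5 and CDH5 at most 0.638 CPM. The part of these markers in the result was not tested.

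Among the synthesis enzymes, CTH, which releases cysteine from cystathionine (chromosome 1, 70411218 to 70439851, plus strand, GRCh38), was at 7.06, 6.65 and 6.30 CPM at the low dose and 21.2, 21.5 and 20.8 CPM at the high dose. Every high dose library thus held about the same level, far above the low dose libraries, a log2 change of 1.67 (SE 0.088, adjusted p = 7.02e-21). ASNS, which makes asparagine from aspartate and glutamine (chromosome 7, 97852118 to 97872542, minus strand), went from 49.6, 57.1 and 56.9 to 161, 162 and 157 CPM, a log2 change of 1.55 (SE 0.093, adjusted p = 7.19e-19). MTHFD2, a mitochondrial folate enzyme that carries on the one-carbon unit of serine, went from 72.1, 73.8 and 72.7 to 155, 159 and 156 CPM, a log2 change of 1.10 (SE 0.049, adjusted p = 1.39e-23). The groups do not overlap for any of these genes.

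The genes for the first and the last enzyme of proline synthesis from glutamate rose together. ALDH18A1, the first enzyme, went from 125, 131 and 134 to 232, 229.9 and 228 CPM, a log2 change of 0.82 (SE 0.037, adjusted p = 2e-23). PYCR1, the last enzyme, went from 84.2, 87.1 and 86.0 to 184, 174 and 168 CPM, a log2 change of 1.03 (SE 0.055, adjusted p = 1.03e-20). In serine synthesis, the aminotransferase PSAT1 went from 72.7, 69.9 and 67.4 to 119, 117 and 114 CPM, a log2 change of 0.74 (SE 0.056, adjusted p = 1.99e-15), and PHGDH, the step before it, rose by 0.67. PSPH, the last step of the same path, did not pass (-0.02, adjusted p = 0.868). GOT1 (0.76), GPT2 (0.66) and SHMT2 (0.40), which make aspartate, alanine and, in mitochondria, glycine, also rose. SHMT1, the cytosolic counterpart of SHMT2, fell (-0.72, adjusted p = 1.27e-11), and BCAT1, the cytosolic transaminase of branched-chain amino acids, did not pass (-0.16, adjusted p = 0.0984).

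CBS had a log2 fold change of 1.02 (adjusted p = 6.79e-05), from 4.78, 7.95 and 8.23 to 14.2, 14.7 and 13.7 CPM. Its reads are uncertain, because a nearly identical copy, CBSL, lies on the same chromosome of this build. CBSL held 3.06 CPM in Schisandrae_low replicate 1, the library with the low CBS value, and in 5 of the 60 libraries it held from 2.21 to 3.76 CPM against at most 0.734 CPM in the others. Summed over both genes, the low dose libraries were at 8.10 ± 0.227 CPM (SD, n = 3) and the high dose libraries at 14.6 ± 0.693 CPM, a log2 ratio of the means of 0.85.

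Among the synthetases, GARS1, which charges glycine tRNA in cytosol and mitochondria, went from 192, 204 and 189 to 359, 368 and 359 CPM, a log2 change of 0.89 (SE 0.040, adjusted p = 2.4e-23). AARS1, for alanine, went from 194, 207 and 215 to 345, 388 and 349 CPM, a log2 change of 0.81 (SE 0.058, adjusted p = 3.25e-16). CARS1, for cysteine, went from 62.4, 68.4 and 71.0 to 103, 113 and 104 CPM (log2 fold change 0.66, SE 0.052, adjusted p = 7.52e-15). In all of these the lowest high dose library lay above the highest low dose library.

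MARS1, for methionine, went from 148, 160.0 and 164 to 243, 246 and 235 CPM (log2 fold change 0.62, SE 0.053, adjusted p = 8.76e-14). SARS1, for serine, went from 137, 147 and 136 to 208, 218 and 209 CPM (log2 fold change 0.59, SE 0.055, adjusted p = 1.36e-12), and YARS1, for tyrosine, from 165, 170.1 and 174 to 243, 261 and 249 CPM (log2 fold change 0.56, SE 0.046, adjusted p = 2.04e-14). The other synthetases that rose did so by log2 0.17 (FARSA) to 0.59 (RARS1), with EPRS1, which charges both glutamate and proline tRNAs, at 0.49. HARS1, for histidine, fell (-0.23, adjusted p = 8.6e-05). FARSB (-0.07, adjusted p = 0.278), IARS1 (-0.10, 0.322) and VARS1 (0.10, 0.204) did not pass. FARSA and FARSB encode the 2 subunits of the phenylalanine enzyme. The FARSA call ended without Schisandrae_high replicate 1 or Schisandrae_low replicate 1.

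Among the transporters, SLC7A5, which exchanges large neutral amino acids such as leucine, went from 212, 212 and 229 to 467, 439 and 419.9 CPM, a log2 change of 1.02 (SE 0.1, adjusted p = 1.42e-11). SLC3A2, the heavy chain that SLC7A5 and SLC7A11 need at the cell surface, went from 161, 166 and 163 to 225, 219 and 217 CPM, a log2 change of 0.43 (SE 0.099, adjusted p = 0.000272). SLC1A5 went from 329.6, 320.3 and 353 to 623, 599.6 and 568 CPM, a log2 change of 0.84 (SE 0.053, adjusted p = 4.32e-18). The light chain thus rose more than its heavy chain in point estimate, a difference between genes that was not tested.

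The glycine transporter gene SLC6A9 rose by 0.70, from 51.7, 51.2 and 48.7 to 86.1, 78.2 and 81.5 CPM (adjusted p = 2.01e-10). SLC1A4, which carries serine and alanine, went from 32.2, 35.0 and 37.2 to 52.2, 49.9 and 48.1 CPM (log2 fold change 0.52, SE 0.074, adjusted p = 6.44e-08). SLC38A1 passed narrowly, from 128, 123 and 115 to 158, 146 and 144 CPM (log2 fold change 0.29, SE 0.12, adjusted p = 0.0433). That call ended when any 1 of the 6 libraries was left out. SLC38A2 (0.09, adjusted p = 0.402) and the cationic transporter gene SLC7A1 (0.19, 0.266) did not pass.

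The response to Schisandrae was seen at the top dose. Between 100 and 20 µg/mL edgeR called 0 of 41 genes (4 at an unadjusted p under 0.05, and 0 by DESeq2), with 0.332% of all tested genes called in either direction. ASNS, at 62.1, 62.1 and 63.0 CPM, and PYCR1, at 91.7, 94.3 and 89.1 CPM, lay a little above the low dose at the medium dose. The medium dose of CTH, at 5.98, 6.51 and 6.91 CPM, overlapped the range of the low dose libraries. Mean CPM rose at each step from vehicle through the low and medium to the high dose for 13 of the 41 and fell at each step for 1, IARS1. For Aucklandiae the same counts were 11 and 3. The share of all genes with such an order was not counted, some steps were small, and the step from vehicle crosses library sets.

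Against vehicle, the high dose of Schisandrae had 31 members higher and 3 lower, with 25.3% and 25.6% of all tested genes, and ASNS at 1.63 and CTH at 1.68. BCAT1 was the third lower gene (-0.24, adjusted p = 0.0134). At the medium dose edgeR called 0 of 41 against vehicle (8 at an unadjusted p under 0.05, and 1 by DESeq2), with 1.02% of all genes called, and it called 5 with Liriopis_high replicate 1 left out of the common fit. At the low dose it called 0 (1 at an unadjusted p under 0.05, and 0 by DESeq2), with 0% of all genes called. All comparisons with vehicle share the same 3 vehicle libraries.

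**Figure D2:**
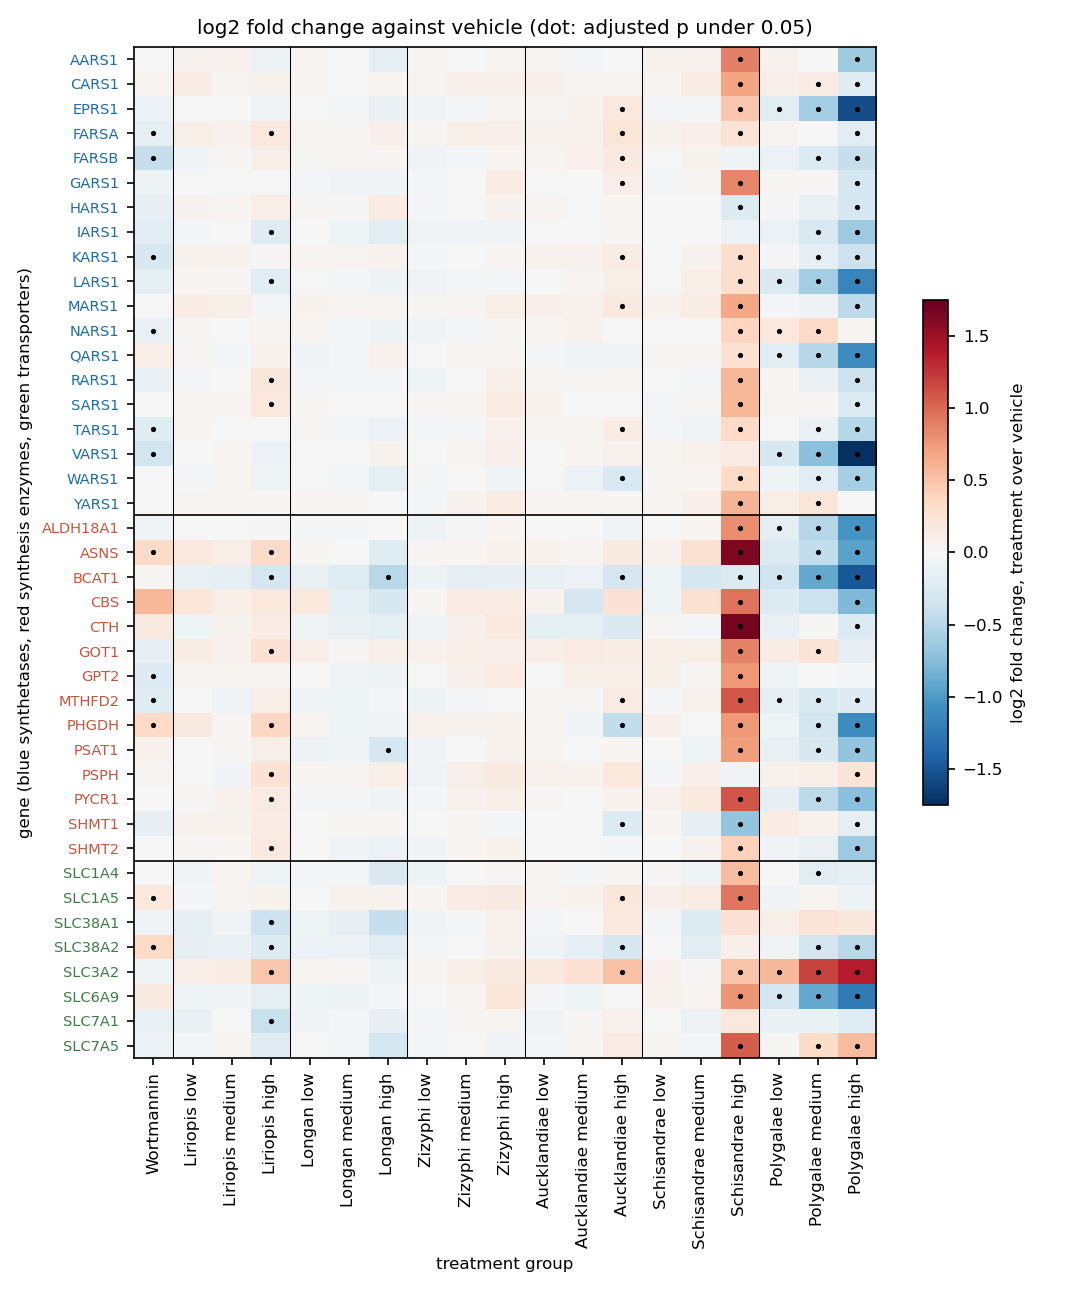
Log2 fold change of each of the 41 genes (rows, grouped by role) in the 19 treatment groups against vehicle (columns), with red for higher and blue for lower and a dot where the adjusted p is under 0.05. Colour and dots gather in the Schisandrae high column, where 31 genes are higher, and in the Polygalae columns, where 30 genes are lower at the high dose and SLC3A2 is higher at every dose.

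Polygalae Radix lowered most of the same 41 genes at its high dose. Between 250 and 10 µg/mL, 30 of 41 fell and 2 rose, whereas 18.3% of all tested genes fell and 17.9% rose. The median log2 fold change was -0.32, against 0.0108 for all tested genes. All 19 synthetases fell, 9 of 14 synthesis enzymes fell and none rose, and the transporters divided, with 2 higher and 2 lower of 8. The 7 neuron markers summed to between 140.1 and 141 CPM at the low dose and 76.1 to 84.1 CPM at the high dose. Oligodendrocyte markers summed to between 6.70 and 8.32 and 10.3 to 12.0 CPM, and endothelial markers to between 33.1 and 39.6 and 26.4 to 31.2 CPM. The part of these markers in the result was not tested. The high dose libraries had TMM normalisation factors of 1.08, 1.10 and 1.12, and the count of 32 called members was also 32 with relative log expression factors in place of TMM.

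Among the synthetases the fall was steepest for VARS1, which charges valine tRNA (chromosome 6, 31777518 to 31795953, minus strand), at 165, 166 and 165 CPM at the low dose, 127, 112 and 123 CPM at the medium dose and 59.6, 61.8 and 57.0 CPM at the high dose, a log2 change from low to high of -1.47 (SE 0.069, adjusted p = 2.56e-22). EPRS1 (chromosome 1, 219968601 to 220046658, minus strand) went from 199, 193 and 189 through 146, 147 and 139 to 76.3, 74.2 and 74.1 CPM, a log2 change of -1.37 (SE 0.047, adjusted p = 3.21e-27). For both genes the 3 doses form separate groups of libraries that step down with dose.

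QARS1, for glutamine, went from 118, 124 and 121 to 63.5, 63.3 and 65.8 CPM (log2 fold change -0.91, SE 0.046, adjusted p = 2.37e-21). LARS1, for leucine, went from 213, 196 and 195 to 109, 106 and 109 CPM (log2 fold change -0.90, SE 0.071, adjusted p = 1.95e-14). Like EPRS1, these enzymes are known components of the cytosolic multi-synthetase complex. TARS1, for threonine, went from 212, 205 and 216 to 151, 145 and 153 CPM (log2 fold change -0.49, SE 0.041, adjusted p = 5.57e-14), and AARS1 went from 208, 205 and 202 to 128, 122 and 133 CPM (log2 fold change -0.68, SE 0.058, adjusted p = 2.49e-13). None of these groups overlap.

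The other 13 synthetases had log2 fold changes from -0.11 (YARS1) to -0.53 (IARS1). The complex members KARS1 (-0.32), MARS1 (-0.45) and RARS1 (-0.40) fell less than EPRS1 in point estimate. The YARS1 call (adjusted p = 0.0473) ended in turn without each replicate of Polygalae_low, without Polygalae_high replicate 1 and without Polygalae_high replicate 2. The NARS1 call (-0.14, adjusted p = 0.0164) ended without Polygalae_low replicate 1 or Polygalae_high replicate 2.

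Among the synthesis enzymes, BCAT1 went from 21.2, 22.0 and 22.2 to 10.6, 9.81 and 9.07 CPM, a log2 change of -1.14 (SE 0.087, adjusted p = 5.74e-15). PHGDH went from 33.0, 33.1 and 35.0 to 17.3, 15.0 and 17.1 CPM, a log2 change of -1.03 (SE 0.11, adjusted p = 1.02e-10). ALDH18A1 went from 116, 115 and 119 to 63.9, 62.6 and 64.2 CPM (log2 fold change -0.88, SE 0.037, adjusted p = 6.98e-24). The first enzymes of serine synthesis and of proline synthesis thus fell in the same libraries, with no overlap between doses.

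PYCR1 went from 70.9, 73.5 and 77.0 to 47.8, 49.7 and 50.8 CPM (log2 fold change -0.58, SE 0.056, adjusted p = 6.89e-12), PSAT1 from 65.6, 59.2 and 68.1 to 40.8, 44.7 and 45.5 CPM (log2 fold change -0.56, SE 0.057, adjusted p = 3.35e-11), and SHMT2 from 109, 109 and 112 to 69.7, 72.3 and 77.0 CPM (log2 fold change -0.59, SE 0.059, adjusted p = 1.98e-11). ASNS (-0.69), SHMT1 (-0.29) and GOT1 (-0.28) fell too. The members that rose most with Schisandrae did not all fall here. CTH had -0.10 (adjusted p = 0.46) and MTHFD2 -0.06 (adjusted p = 0.342), and neither passed. CBS (-0.54, adjusted p = 0.0643), GPT2 (0.06, 0.443) and PSPH (0.14, 0.156) did not pass either.

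The exchange transporter went the other way with Polygalae. SLC3A2 (chromosome 11, 62856102 to 62888875, plus strand) was at 240.3, 226 and 223 CPM at the low dose, 357, 331 and 370.0 CPM at the medium dose and 385, 401 and 424 CPM at the high dose, a log2 change from low to high of 0.81 (SE 0.099, adjusted p = 4.09e-09). SLC7A5 went from 212, 215 and 219.8 to 303, 300.3 and 319 CPM (log2 fold change 0.51, SE 0.1, adjusted p = 7.25e-05). SLC6A9 fell from 40.9, 36.7 and 40.6 to 20.0, 20.3 and 21.2 CPM (log2 fold change -0.94, SE 0.082, adjusted p = 3.28e-13), and SLC38A2 from 361, 365 and 355 to 290.0, 260.2 and 252 CPM (log2 fold change -0.43, SE 0.089, adjusted p = 0.000119). The heavy chain and its light chain thus rose while the glycine transporter and SLC38A2 fell, with no overlap between doses for any of these genes. SLC1A5 (-0.04, adjusted p = 0.605), SLC1A4 (-0.15, 0.121), SLC38A1 (0.10, 0.586) and SLC7A1 (-0.10, 0.628) did not pass.

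The Polygalae response was graded. Between 50 and 10 µg/mL, 9 members fell and 2 rose, with 5.7% and 5.23% of all tested genes. The genes that fell were BCAT1 (-0.55), SLC6A9 (-0.61), VARS1 (-0.46), EPRS1 (-0.43), LARS1 (-0.36), ALDH18A1 (-0.34), PYCR1 (-0.31), QARS1 (-0.31) and KARS1 (-0.12), and those that rose were SLC3A2 (0.62) and NARS1 (0.15). The NARS1 call ended without Polygalae_medium replicate 2 or without Polygalae_low replicate 2 or 3, and the KARS1 call without Polygalae_medium replicate 2 or Polygalae_low replicate 1. With Liriopis_high replicate 1 left out of the common fit, which sets the shared estimate of spread, 21 members were called in place of 11. The share of all tested genes called in that fit is not given here. From vehicle through the low, medium and high doses, the mean CPM of 22 members fell at every step and that of 3 rose at every step (SLC3A2, SLC7A5 and PSPH). The share of all genes with such an order was not counted, and the step from vehicle crosses library sets.

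Against vehicle, 30 members were lower and 3 higher at the high dose, with 22.9% and 23.1% of all genes. At the medium dose 19 were lower and 6 higher (14.9% and 15.2% of all genes), and at the low dose 8 were lower and 2 higher (3.46% and 3.01%). SLC3A2 was already at 0.56 at the low dose, then 1.18 and 1.37, and VARS1 was at -0.28, -0.73 and -1.75. YARS1 (0.21), CARS1 (0.15) and GOT1 (0.22) were higher than vehicle at the medium dose, and did not pass at the low dose (0.12, 0.09 and 0.13). Mean CPM of NARS1 was 149 in vehicle and 169, 188 and 154 at the low, medium and high doses. That of YARS1 was 166 in vehicle and 167 at the high dose. The low dose count of 10 was 3 without Vehicle replicate 3 and 6 without Polygalae_low replicate 2.

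**Figure D3:**
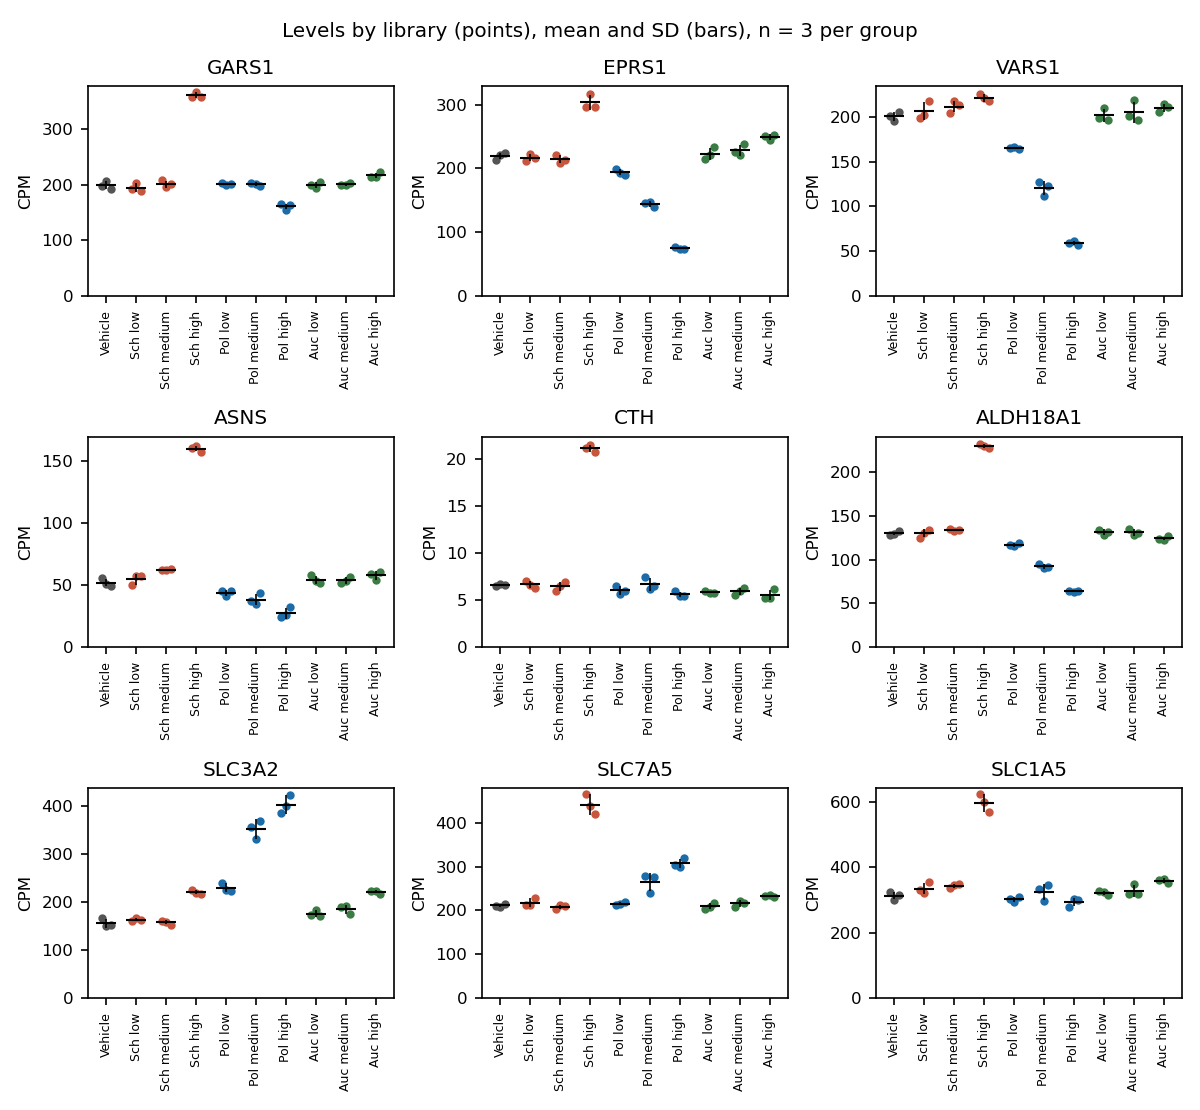
CPM of 9 genes, 3 per role, in each library (points) of vehicle and of the low, medium and high doses of Schisandrae (Sch), Polygalae (Pol) and Aucklandiae (Auc), with the mean and SD of 3 libraries (black bars) and axes starting at 0. ASNS, CTH and GARS1 stand highest at the Schisandrae high dose, VARS1 and EPRS1 step down with each dose of Polygalae, and SLC3A2 steps up with each dose of Polygalae.

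The difference between the herbs was tested directly, as the high against low dose effect of Schisandrae minus that of Polygalae. The doses differ between the herbs (500 against 20, and 250 against 10 µg/mL), and each effect was taken within its own library set. The difference was positive for 35 of 41 members and negative for 2, against 20.7% and 20.3% of all tested genes. It was widest for ASNS at 2.24 (SE 0.13, adjusted p = 1.42e-18), EPRS1 at 1.86 (SE 0.066, adjusted p = 1.22e-26) and CTH at 1.77 (SE 0.13, adjusted p = 1.48e-15). Of the 41, 23 rose with Schisandrae and fell with Polygalae, 7 rose with Schisandrae and did not pass with Polygalae, and 5 did not pass with Schisandrae and fell with Polygalae. Of all tested genes, 25% rose with Schisandrae and 18.3% fell with Polygalae. The shares of all genes in these combined classes were not counted.

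Only SLC3A2 and SLC7A5 among the 41 rose with both herbs, and only HARS1 and SHMT1 fell with both. SLC7A5 rose more with Schisandrae (log2 fold change 0.51, SE 0.15, adjusted p = 0.00391 for the difference), while SLC3A2 rose more with Polygalae (log2 fold change -0.38, SE 0.14, adjusted p = 0.0266 for the difference). The SLC3A2 difference did not pass without Polygalae_high replicate 3 or Polygalae_low replicate 3. SHMT1 fell more with Schisandrae (log2 fold change -0.43, SE 0.1, adjusted p = 0.000549 for the difference), and for HARS1 the difference did not pass (log2 fold change 0.05, SE 0.069, adjusted p = 0.626 for the difference). CTH and MTHFD2 rose with Schisandrae and did not pass with Polygalae, and VARS1 and BCAT1 fell with Polygalae and did not pass with Schisandrae.

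**Figure D4:**
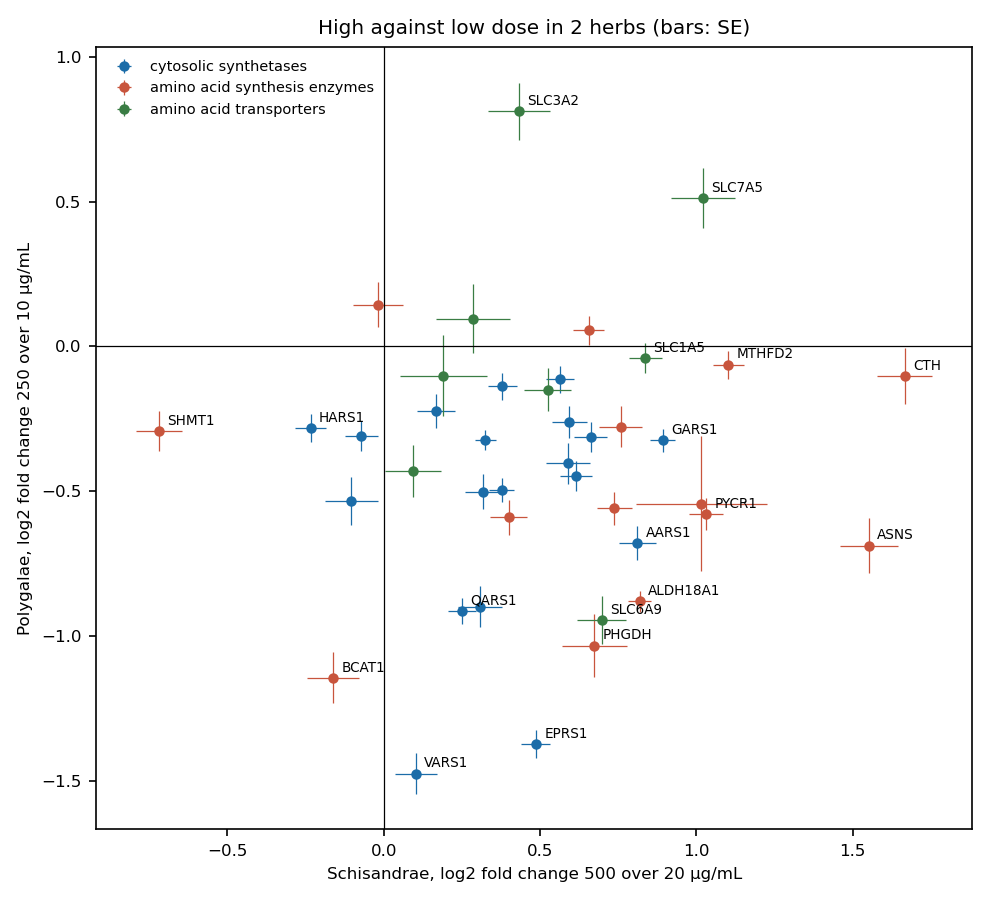
Log2 fold change of each of the 41 genes between the high and low dose of Schisandrae (x axis) and of Polygalae (y axis), with SE bars and colour by role. Most points lie at the lower right, higher with Schisandrae and lower with Polygalae, and SLC3A2 and SLC7A5 lie at the upper right.

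For the 34 genes with a promoter window, calls were counted with and without the CARE core as a description. With Schisandrae, 9 of 12 genes with the core and 18 of 22 without it rose, with median log2 fold changes of 0.41 and 0.59 (25% of all tested genes rose). With Polygalae, 9 of 12 with the core and 16 of 22 without it fell, with medians of -0.38 and -0.32 (18.3% of all tested genes fell). The shares among all genes with and without the core were not counted.

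Aucklandiae Radix changed few members. Between 500 and 20 µg/mL, 3 rose and 3 fell of 41, with 5.32% and 5.3% of all tested genes. SLC3A2 rose from 173, 183 and 169.9 to 224, 224 and 218 CPM (log2 fold change 0.34, SE 0.099, adjusted p = 0.0185), and SLC1A5 from 326, 323 and 313 to 361, 363 and 350.1 CPM (log2 fold change 0.16, SE 0.052, adjusted p = 0.0406). EPRS1 rose from 214, 221 and 233 to 251, 244 and 252 CPM (log2 fold change 0.16, SE 0.046, adjusted p = 0.016). The groups do not overlap for these genes, though the EPRS1 groups come close. From the low to the high dose the summed astrocyte markers went from between 286 and 312 to between 322 and 330.5 CPM, the endothelial markers from between 31.8 and 37.4 to between 40.98 and 44.8 CPM, and the oligodendrocyte markers from between 6.93 and 8.47 to between 8.97 and 10.9 CPM. The endothelial sum is mostly KDR, the only 1 of those markers with a median above 0.638 CPM over all libraries. The part of these marker lists in the result was not tested.

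PHGDH fell from 36.9, 37.1 and 35.3 to 26.0, 24.9 and 28.1 CPM (log2 fold change -0.47, SE 0.11, adjusted p = 0.00151), WARS1, for tryptophan, from 227, 242 and 238 to 196, 195 and 199 CPM (log2 fold change -0.26, SE 0.061, adjusted p = 0.00202), and SHMT1 from 29.1, 30.5 and 32.3 to 25.2, 26.2 and 25.9 CPM (log2 fold change -0.25, SE 0.071, adjusted p = 0.0146). PHGDH and WARS1 were called under every alternative tried. Each of the other 4 calls ended without some single library. The SLC1A5 call ended without any 1 of the 6 libraries. The SLC3A2 call ended without Aucklandiae_high replicate 1 or 2 or Aucklandiae_low replicate 1 or 3, EPRS1 without Aucklandiae_high replicate 1 or 3 or Aucklandiae_low replicate 1 or 2, and SHMT1 without Aucklandiae_high replicate 1 or Aucklandiae_low replicate 3. The count of 6 was 2 without Aucklandiae_high replicate 1, 3 without Aucklandiae_low replicate 3 and 14 with Liriopis_high replicate 1 left out of the common fit.

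Against vehicle, the high dose of Aucklandiae had 10 members higher and 5 lower, with 6.54% and 6.69% of all genes. SLC3A2 was at 0.51 and PHGDH at -0.43. The count of 15 was 8 without Vehicle replicate 2, 6 without Vehicle replicate 3, and 9 without Aucklandiae_high replicate 1 and likewise without replicate 2. At the medium dose edgeR called 0 of 41 against vehicle (3 at an unadjusted p under 0.05, and 0 by DESeq2), with 0.455% of all genes, and 1 without Liriopis_high replicate 1. It called 0 at the low dose (0 at an unadjusted p under 0.05, and 0 by DESeq2), with 0.00562% of all genes, and 0 between the medium and low doses (0 and 0), with 0.0169% of all genes. The high against low dose effect of Schisandrae minus that of Aucklandiae, at the same doses, was positive for 29 members and negative for 3, against 15.8% and 16.8% of all genes, with CTH at 1.74 (SE 0.13, adjusted p = 7.98e-15) and ASNS at 1.46 (SE 0.13, adjusted p = 1.83e-12). HARS1 (-0.21), FARSB (-0.19) and SHMT1 (-0.47) were the negative ones.

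Wortmannin raised 4 members and lowered 8, with 5.45% and 6.52% of all tested genes, and all 6 synthetases called were lower. FARSB fell from 82.0, 81.4 and 81.7 in vehicle to 60.4, 60.7 and 63.4 CPM (log2 fold change -0.41, SE 0.053, adjusted p = 2.22e-07), KARS1, for lysine, from 158, 155 and 151 to 125, 128 and 129 CPM (log2 fold change -0.28, SE 0.035, adjusted p = 5.04e-08), and VARS1 from 201, 196 and 205 to 160.3, 164 and 159 CPM (log2 fold change -0.32, SE 0.067, adjusted p = 0.000703). TARS1 (-0.21), FARSA (-0.17) and NARS1 (-0.13) fell less in point estimate. The vehicle and wortmannin libraries do not overlap for FARSB, KARS1 or VARS1.

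Of the enzymes, MTHFD2 (-0.21) and GPT2 (-0.22) were lower, while ASNS rose from 55.2, 50.7 and 49.4 to 64.7, 61.8 and 69.6 CPM (log2 fold change 0.34, SE 0.092, adjusted p = 0.00998) and PHGDH from 36.6, 37.7 and 31.9 to 44.5, 42.4 and 46.7 CPM (log2 fold change 0.33, SE 0.1, adjusted p = 0.0258). Of the transporters, SLC38A2 rose from 354, 367 and 402 to 503, 452 and 470.4 CPM (log2 fold change 0.34, SE 0.089, adjusted p = 0.00633) and SLC1A5 from 324, 301 and 315 to 347, 358 and 359.8 CPM (log2 fold change 0.18, SE 0.052, adjusted p = 0.0164). The ASNS call ended without replicate 3 of either group, PHGDH without Vehicle replicate 3 or Wortmannin replicate 1 or 3, SLC38A2 without Wortmannin replicate 1, and SLC1A5 without Vehicle replicate 2 or Wortmannin replicate 2 or 3. The FARSA call ended without any 1 of the 6 libraries, and NARS1 without any but Vehicle replicate 3. The count of 12 was 7 without Wortmannin replicate 3 and 21 with Liriopis_high replicate 1 left out of the common fit. Neuron markers summed to between 161 and 165 CPM in vehicle and 179 to 186 CPM with wortmannin, and their part in the result was not tested. Library set and treatment cannot be told apart here.

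For Liriopis seu Ophiopogonis Tuber, the calls were lost without the library that stands apart. At the high dose 10 members were higher and 6 lower than vehicle (18.7% and 15.2% of all genes), and 4 were higher and 1 lower than at the low dose (11.8% and 4.27%). SLC3A2 was at 303, 169 and 178 CPM at the high dose against 166, 149 and 151 in vehicle, and IARS1 at 220.1, 389.8 and 371 against 369.6, 388 and 378 CPM. Replicate 1 lay far from replicates 2 and 3 in both genes, and those lay near vehicle. SLC7A1, at 58.7, 164 and 149.9 CPM, and SLC7A5, at 111, 226 and 209 CPM, showed the same split.

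Without that library edgeR called 0 of 41 against vehicle (4 at an unadjusted p under 0.05) and 0 against the low dose (2 at an unadjusted p under 0.05), while 0.00553% and 0% of all genes were called. With it, the count of 16 was 6 without Vehicle replicate 2 and 3 without Vehicle replicate 3. The count of 5 was 20 and 17 without Liriopis_high replicates 2 and 3, 0 without Liriopis_low replicate 2 (edgeR) and 1 without Liriopis_low replicate 3. At the medium and low doses edgeR called 0 members against vehicle (0 and 2 at an unadjusted p under 0.05, and 0 and 0 by DESeq2), with 0.0112% and 0.00562% of all genes.

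With Longan Arillus and Zizyphi Semen, few of the 41 genes were called. The high dose of Longan lowered BCAT1 (log2 fold change -0.49, SE 0.081, adjusted p = 0.000451) and PSAT1 (log2 fold change -0.29, SE 0.056, adjusted p = 0.00326) against vehicle and raised none (14 members at an unadjusted p under 0.05, and 0.545% lower and 0.298% higher of all genes). Leaving out Liriopis_high replicate 1 turned those 2 calls into 11, and leaving out Longan_high replicate 3 left 1. Between the high and low doses of Longan only BCAT1 was lower (log2 fold change -0.37, SE 0.081, adjusted p = 0.0304, with 16 members at an unadjusted p under 0.05, and 0.124% of all genes lower and 0.124% higher). That call ended without Longan_low replicate 1 or 2 or any 1 replicate of Longan_high, and 7 members were called without Liriopis_high replicate 1. Members called against vehicle by edgeR were 0 at the medium dose of Longan (1 at an unadjusted p under 0.05, 0 by DESeq2, 0.0281% of all genes) and 0 at its low dose (0, 0 and 0.00562%).

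For Zizyphi edgeR called 0 members at the high dose (7 at an unadjusted p under 0.05, 1 by DESeq2, 0.607% of all genes), with log2 fold changes from -0.15 to 0.21. It called 0 at the medium dose (2 at an unadjusted p under 0.05, 0 by DESeq2, 0.0393% of all genes) and 0 at the low dose (1, 0 and 0%). Between the high and low doses it called 0 (12 at an unadjusted p under 0.05, 3 by DESeq2, 0.674% of all genes). Without Liriopis_high replicate 1 the counts were 4 for the high dose against vehicle and 6 between doses.

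Other genes of the pathway were taken from lists chosen by role. With Schisandrae (high against low dose), 15 of 19 regulators of the amino acid response rose and 1 fell, with a median log2 fold change of 0.60 (of all tested genes, 25% rose and 24.8% fell). ATF4 rose from 136, 145 and 119 to 241, 229 and 236 CPM (log2 fold change 0.82, SE 0.098, adjusted p = 1.4e-09), and TRIB3, a pseudokinase known as an ATF4 target, from 26.4, 25.8 and 27.0 to 94.8, 94.0 and 89.4 CPM (log2 fold change 1.81, SE 0.086, adjusted p = 1.59e-22). SESN2, a leucine-sensing inhibitor of mTORC1, rose by 1.60, CEBPG by 1.04, MYC by 0.81, DDIT3 by 0.60 and EIF2AK4 by 0.23. SLC7A11, the cystine light chain, rose by 0.77.

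A list of 20 genes held mitochondrial synthetases and the amidotransferase subunits QRSL1, GATB and GATC. Of these 20 genes, 4 rose and 7 fell with Schisandrae (beside 25% and 24.8% of all tested genes), with a median log2 fold change of -0.04. TARS2 rose (log2 fold change 0.79, SE 0.055, adjusted p = 1.18e-16), while CARS2 (log2 fold change -0.59, SE 0.058, adjusted p = 6.29e-12), SARS2 (log2 fold change -0.67, SE 0.076, adjusted p = 3.15e-10) and QRSL1, a subunit of the mitochondrial glutamine amidotransferase (log2 fold change -0.44, SE 0.054, adjusted p = 2.63e-09), fell. CARS1 and SARS1, the cytosolic counterparts of CARS2 and SARS2, rose in the same libraries.

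Of 16 other synthesis and one-carbon genes tested, 5 rose and 3 fell with Schisandrae, with ALDH1L2 (1.36) and MTHFD1L (0.53) higher and MTHFD1, a cytosolic folate enzyme, lower (-0.48). Of 21 other transporters tested, 5 rose and 10 fell, where 25% of all genes rose and 24.8% fell, among them SLC38A4 (-2.03), SLC38A7 (-0.75), SLC38A10 (-0.65) and the glial glutamate transporter SLC1A3 (-1.49).

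With Polygalae (high against low dose), some regulators rose while most of the 41 genes fell. ATF4 rose from 180.3, 171 and 187 to 273, 281 and 288 CPM (log2 fold change 0.65, SE 0.097, adjusted p = 4.91e-07), and SLC7A11, the cystine carrier that pairs with SLC3A2, from 177, 213 and 188 to 439, 367 and 369.7 CPM (log2 fold change 1.03, SE 0.1, adjusted p = 2.51e-11). PPP1R15A (1.06), CEBPB (0.99) and MYC (0.36) rose too, and TRIB3 (0.07, adjusted p = 0.604), DDIT3 (0.31, 0.0756) and EIF2AK4 (0.03, 0.831) did not pass. In all 8 of 19 regulators rose and 3 fell, where 17.9% of all genes rose and 18.3% fell. Relative to the low dose, the ATF4 transcript was thus higher in libraries where ASNS, PHGDH and 19 synthetases were lower. Relative to vehicle, 17 of the 19 synthetases were called lower at the high dose.

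Of the other synthesis and one-carbon genes, 10 of 16 fell with Polygalae and none rose. Among them were MTHFD1 (-0.95), GOT2 (-0.65), OAT (-0.65) and MTHFD1L (-0.48), and the lowest log2 fold change of the list was -1.09. Of the mitochondrial synthetases and amidotransferase subunits, 4 rose and 7 fell of 20 (median -0.07, beside 17.9% and 18.3% of all genes). IARS2 (-0.21) was lower, and QRSL1 (0.26) and GATC (0.22) were higher. Of the other transporters 6 rose and 8 fell of 21, with SLC7A8 at 1.32, SLC38A4 at -2.26 and SLC38A5 at -0.98.

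With Aucklandiae (high against low dose), 3 regulators rose and 1 fell of 19 (beside 5.32% and 5.3% of all genes), and ATF4 (0.14, adjusted p = 0.466), TRIB3 (0.03, 0.903), DDIT3 (0.03, 0.945) and EIF2AK4 (-0.02, 0.911) did not pass. SLC7A11 rose from 131, 129 and 152 to 235, 249 and 271 CPM (log2 fold change 0.87, SE 0.1, adjusted p = 1.32e-08), along with its partner SLC3A2. GLUL, which makes glutamine, fell (log2 fold change -0.54, SE 0.051, adjusted p = 1.83e-11). SLC3A2 thus rose between the low and high dose in Schisandrae, Polygalae and Aucklandiae, and SLC7A11 did so too.

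With wortmannin, 1 regulator rose and 6 fell of 19 (beside 5.45% and 6.52% of all genes), among them TRIB3 (-0.37), DDIT3 (-0.54), CEBPG (-0.23) and ATF3 (-0.80). ATF4 (0.08, adjusted p = 0.686), EIF2AK4 (-0.13, 0.28) and SLC7A11 (0.08, 0.731) did not pass. Of the mitochondrial synthetases and amidotransferase subunits, 3 of 20 fell (CARS2, NARS2 and QRSL1) and none rose.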

How the data were processed

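The authors deposited 1 table of expected counts from RSEM 1.3.3, after Trim Galore 0.6.5 and STAR 2.7.3a on GRCh38, with FastQC 0.11.9, per the submitters' processing notes. Libraries came from a directional mRNA kit, per the labels' protocols. Not given in the sources used here were the annotation release and whether counting used strand, so reads of overlapping genes may be shared. Symbols, coordinates and exon lengths are from GENCODE release 29.

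Expected counts (11.02% not whole) were rounded. A single quasi-likelihood model over the 60 libraries was fitted with edgeR 4.0.16 under R 4.3.3, using group means, TMM, a filter at a minimum count of 10 and 40 residual degrees of freedom. The common dispersion of 0.00761 equals a biological coefficient of variation near 8.72%. Adjusted p-values are Benjamini-Hochberg over all 17792 genes within a comparison, called at 0.05, and SE is the log2 fold change over the root of its F statistic. Unless DESeq2 (1.42.0) is named, every adjusted p is from edgeR. No 2 libraries held identical values. The fit was tested on simulated data.

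Full values are given for up to 6 called members per role with the smallest p, and up to 4 genes per other list, plus ATF4, DDIT3, TRIB3, EIF2AK4 and SLC7A11. Some genes of these lists are not reported here. The members and lists were chosen with earlier results of these data known. Same-numbered libraries deviated together, with every correlation above 0.1, only for Liriopis_high against Vehicle and against Liriopis_low, and for Aucklandiae_high and Aucklandiae_medium against Aucklandiae_low. Alternatives were other factors, no filter, a replicate block, the compared groups alone, DESeq2 and leaving out each library. Shares of all tested genes under these alternatives are given only for Liriopis without its high dose replicate 1.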

Additional observations from a re-analysis of the deposited data

Results flagged for a closer look

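The high against low dose effect of Schisandrae and that of Polygalae differed, by the test of the difference itself, for 37 of the 41 genes. This difference was positive for 20.7% and negative for 20.3% of all tested genes. Among the 37 members were EPRS1 (log2 difference 1.86), ALDH18A1 (1.70), SLC6A9 (1.64), PYCR1 (1.61), GARS1 (1.22), MTHFD2 (1.17), QARS1 (1.16), SLC1A5 (0.88) and SLC1A4 (0.67), and in the negative direction SLC3A2 (-0.38) and SHMT1 (-0.43). The effect of Schisandrae and that of Aucklandiae differed for 32 of the 41 genes, among them ALDH18A1 (0.90), GARS1 (0.78) and SLC1A5 (0.68), with FARSB (-0.19), HARS1 (-0.21) and SHMT1 (-0.47) in the negative direction. Of all tested genes, 15.8% had a positive and 16.8% a negative difference between these herbs. The HARS1 difference did not pass without Aucklandiae_low replicate 3 or without the filter on low counts. The FARSB difference did not pass without any 1 library of Schisandrae_high or Aucklandiae_high, without Schisandrae_low replicate 2 or 3, or without Aucklandiae_low replicate 2. It did not pass without the filter on low counts either. Of the positive differences from Aucklandiae, those of CBS and SLC38A2 were also lost when some single libraries were left out, and that of SLC38A2 without the filter. In both comparisons the herbs compared came from different library sets.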

How the results depend on the processing

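Single member values were rerun for the 170 calls under wortmannin, between doses of a herb and between herbs, and none of these changed direction. Those of herbs against vehicle were rerun as counts. Of the 170, 170 were called with relative log expression factors, 170 with DESeq2, 168 with the replicate block, 161 with the compared groups alone and 143 without the filter on low counts. Calls between doses lost without the filter included FARSA and SLC38A1 (Schisandrae), YARS1, NARS1 and KARS1 (Polygalae), and EPRS1, SLC1A5 and SHMT1 (Aucklandiae). Without that filter the members called were 7 for wortmannin, 8 for Liriopis high against vehicle and 1 against its low dose, 1 for Longan high against vehicle and 0 against its low dose, 3 for Polygalae low against vehicle, and 5 and 3 for Aucklandiae high against vehicle and its low dose. With the compared groups alone they were 20 for wortmannin, 0 and 0 for Liriopis high against vehicle and its low dose, 6 and 2 for Longan high, 2 for Schisandrae medium against vehicle and 1 for Aucklandiae medium. With DESeq2 they were 1 for Schisandrae medium, 4 and 2 for Longan high, 8 for Liriopis high against low, and 1 and 3 for Zizyphi high, which had 1 between doses with relative log expression factors. The shares of all tested genes called under these settings are not given here, and the cause of these shifts was not tested.

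Leaving out each library in turn gave 32 to 38 members for Schisandrae high against low and 30 to 35 for Polygalae high against low, 10 to 21 for Polygalae medium against low, 2 to 14 and 6 to 18 for Aucklandiae high against low and vehicle, and 7 to 21 for wortmannin. It gave 0 to 23 and 0 to 20 for Liriopis high against vehicle and low, 1 to 11 and 0 to 7 for Longan high, 0 to 4 and 0 to 6 for Zizyphi high, 3 to 13 for Polygalae low, 0 to 5 for Schisandrae medium and 0 to 1 for Aucklandiae medium. With the replicate block, 10 members were called for wortmannin in place of 12 (FARSA and NARS1 did not pass), 15 in place of 16 for Liriopis high against vehicle, and 34 and 32 for Schisandrae and Polygalae high against low. The block moved no count by over 1.5 times. Depth was lowest in Liriopis_low replicate 3, at 9.34 M, which limits the precision of that group.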
